A study of Mus musculus with 4 samples.

Results

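Microexons are exons of at most 15 nucleotides (nt), so short that an exon reaches the mRNA with only a handful of bases between its neighbours. The deposited splicing table holds 479 microexon events, and the 206 described here are those with at least 10 inclusion plus exclusion reads in each of the infarcted heart libraries, 43.0% of the events, in 192 genes. Of the other 273 events, 120 had no read in either infarcted library and 153 had reads but fewer than 10 in at least 1 of them. All splicing events of the table together number 124326.

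The libraries were made from polyadenylated RNA of the heart of C57BL/6 mice. The infarcted group is 2 mice whose left anterior descending coronary artery was tied permanently, with the tissue taken 7 days later from the remote area, away from the infarct. The uninjured group is 2 mice without infarct, titled WT in the labels, whose sample descriptions carry 7d as well. The labels used here give no age, sex or sham operation, and each library is taken as 1 mouse. For microexons the uninjured columns hold 0 values in 479 events, so no inclusion level below can be set against an uninjured one, and no group test of inclusion was made. Uninjured libraries enter only for gene counts and for other kinds of splicing event.

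Library totals ran from 35715115 to 70885393 gene counts. Summed markers of cardiomyocytes (Myh6, Tnnt2, Actc1, Tnni3, Ryr2) stood at 25038 and 22496 CPM (gene counts scaled to a common library size) in the infarcted and at 34755 and 42361 CPM in the uninjured libraries. Of these, edgeR called Tnnt2 and Tnni3 lower in the infarcted libraries, and not Myh6 (adjusted p 0.11), Actc1 (0.17) or Ryr2 (0.55). Infarcted replicate 2 stood apart in atrial markers (Sln, Myl4, Myl7, Mybphl, Nppa), whose summed level was 2009 CPM against 295 in infarcted replicate 1 and 88.8 and 49.5 in the uninjured libraries. Sln was at 0 CPM in infarcted replicate 1 and at 34.7 in infarcted replicate 2. In infarcted replicate 1, Nppa alone made up 293.67 of the 295 CPM. Sln, Myl4, Myl7 and Mybphl were no higher there than in the uninjured libraries. Summed fibroblast markers (Pdgfra, Tcf21, Dcn, Col1a1) were 2418 and 2026 CPM in the infarcted and 503 and 514 CPM in the uninjured libraries. Most of that difference was Col1a1, at 1883 and 1211 CPM against 76.3 and 82.9. Neuronal markers summed to 13.5 and 16.9 CPM in the infarcted and 10.9 and 12.8 CPM in the uninjured libraries, with Snap25, Syt1 and Rbfox3 under 0.05 CPM in every library and Stmn2 between 5.91 and 8.04. Tubb3 of that list was higher in the infarcted libraries, at 4.92 and 7.96 against 0.919 and 1.31 CPM (log2 fold change 2.52, edgeR adjusted p 0.000166). In such bulk tissue, fewer cells of a type and less RNA per cell cannot be told apart.

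A microexon is spliced only when the spliceosome can define both of its ends across a few bases, which ordinary exon definition cannot easily do. In neurons the SR-related protein Srrm4 binds upstream of many microexons and promotes their inclusion, whereas Ptbp1 represses many of them in other cells. Most known microexons keep the reading frame and alter surfaces through which proteins meet partners. Heart and skeletal muscle share some of these exons with brain, among them exons of adhesion, trafficking and contractile genes.

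The sequences below are the microexons on which the results turn, in capitals, between the 18 bases that precede and the 18 that follow them in the spliced mRNA, written 5′ to 3′. The letters come from GENCODE M21 transcripts of GRCm38, in which the exon was found by gene, strand, exon length and the lengths of both neighbouring introns. Coordinates are those of the deposited table, on mm9. The first set holds microexons of heart genes that were included in most transcripts, and the 6-nt exon of Clip1, which was included in about as many transcripts as it was skipped from.
Tnnt2, 9 nt, chr1:137746956-137746964, plus strand: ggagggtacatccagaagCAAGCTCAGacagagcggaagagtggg
Pdlim5, 15 nt, chr3:141969248-141969262, minus strand: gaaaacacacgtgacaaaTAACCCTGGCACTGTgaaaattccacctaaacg
Ryr2, 15 nt, chr13:11983101-11983115, minus strand: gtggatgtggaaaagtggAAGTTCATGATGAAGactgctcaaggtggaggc
Slc8a1, 15 nt, chr17:81840992-81841006, minus strand: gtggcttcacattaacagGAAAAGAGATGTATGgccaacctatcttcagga
Psap, 9 nt, chr10:59760285-59760293, plus strand: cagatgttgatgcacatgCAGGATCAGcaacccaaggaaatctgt
Immt, 15 nt, chr6:71816720-71816734, plus strand: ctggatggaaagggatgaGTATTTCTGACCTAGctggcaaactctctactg
Idh3g, 12 nt, chrX:71027637-71027648, minus strand: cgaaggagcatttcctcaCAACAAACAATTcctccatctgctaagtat
Col1a2, 11 nt, chr6:4458335-4458345, plus strand: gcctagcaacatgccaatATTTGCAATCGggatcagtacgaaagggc
Clip1, 6 nt, chr5:124031601-124031606, minus strand: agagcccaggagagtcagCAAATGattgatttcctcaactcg

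The second set holds annotated microexons that had no inclusion read in either infarcted library. Those of Kdm1a, Apbb1, Itsn1 and Vav2 lie in genes with functions in neurons, and Casq2 is the calcium store protein of the cardiac sarcoplasmic reticulum.
Casq2, 9 nt, chr3:101937013-101937021, plus strand: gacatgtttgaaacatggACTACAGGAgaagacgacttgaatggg
Kdm1a, 12 nt, chr4:136119353-136119364, minus strand: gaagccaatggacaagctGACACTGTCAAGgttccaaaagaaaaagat
Apbb1, 6 nt, chr7:112714460-112714465, minus strand: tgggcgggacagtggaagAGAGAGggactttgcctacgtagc
Itsn1, 15 nt, chr16:91842873-91842887, plus strand: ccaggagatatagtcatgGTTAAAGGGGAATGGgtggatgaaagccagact
Vav2, 15 nt, chr2:27140359-27140373, minus strand: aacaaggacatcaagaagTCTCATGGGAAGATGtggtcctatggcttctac

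The third set pairs microexons of equal length in related genes, which are compared further on.
Clasp1, 3 nt, chr1:120444233-120444235, plus strand: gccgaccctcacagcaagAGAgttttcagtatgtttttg
Clasp2, 3 nt, chr9:113796163-113796165, plus strand: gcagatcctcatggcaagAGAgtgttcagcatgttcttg
Nav1, 9 nt, chr1:137354438-137354446, minus strand: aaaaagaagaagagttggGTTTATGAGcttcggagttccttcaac
Nav2, 9 nt, chr7:56830617-56830625, plus strand: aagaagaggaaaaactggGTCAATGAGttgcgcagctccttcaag
Dnm1, 12 nt, chr2:32178699-32178710, minus strand: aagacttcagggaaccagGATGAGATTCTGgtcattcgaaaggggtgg
Dnm2, 12 nt, chr9:21295102-21295113, plus strand: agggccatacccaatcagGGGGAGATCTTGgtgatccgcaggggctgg
Mapk8ip3, 12 nt, chr17:25046095-25046106, minus strand: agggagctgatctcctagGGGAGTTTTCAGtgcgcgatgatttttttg
Spag9, 12 nt, chr11:93940513-93940524, plus strand: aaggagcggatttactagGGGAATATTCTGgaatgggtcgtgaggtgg

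The inclusion level is the percentage of reads that join the microexon to its neighbours among these plus the reads that skip it. Most measured microexons were skipped. In 111 of the 206 (53.9%), no inclusion read was found in either infarcted library, and in 27 the level was below 10% in both. Another 39 (18.9%) lay between 10 and 90% in both libraries, 9 lay above 90% in both, 7 had no skipping read at all, and 13 fell on different sides of a bound in the 2 libraries. The median level was 0% in each library, with means of 19.1% in replicate 1 and 18.4% in replicate 2.

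Depth differed widely between microexons. The median was 39.5 reads in replicate 1 and 31 in replicate 2, with ranges of 10 to 15031 and 10 to 15284. Only 34 microexons had 100 reads or more in both libraries, and 40 in replicate 1 and 55 in replicate 2 had fewer than 20. The 95% exact binomial (Clopper-Pearson) intervals had median half-widths of 6.11 and 7.12 points. These intervals and the limits given below cover counting error only, since the reads carry no molecular identifiers. For the 111 microexons without an inclusion read, the limit that a count of 0 allows (3 reads of the summed total) ran from 0.128% to 14.3%, with a median of 5.36%, and lay under 5% in 51 of them.

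**Figure D1:**
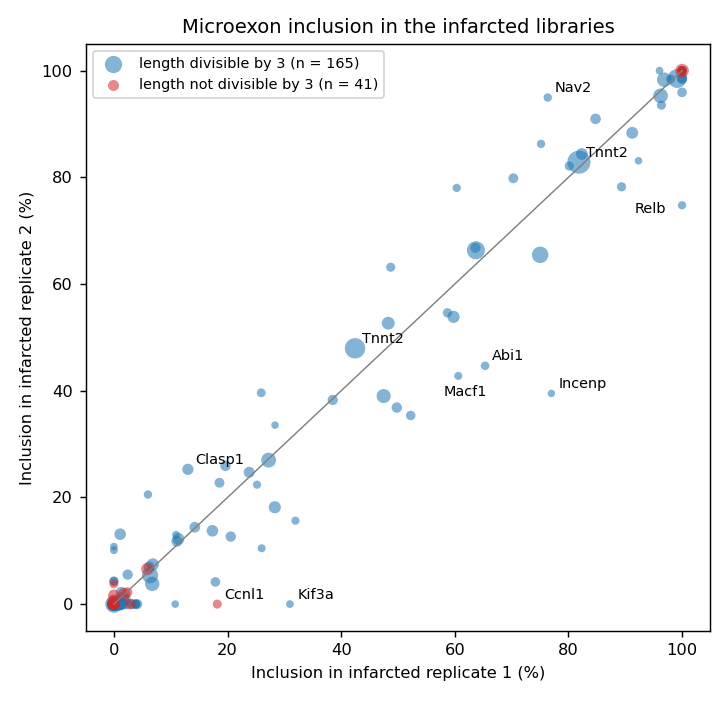
Inclusion (%) of the 206 microexons in infarcted replicate 1 (horizontal) and infarcted replicate 2 (vertical), 1 point each, with larger points for more reads in the shallower library. The points lie along the line of equal values and pile up at 0% in both, and the microexons whose length is not divisible by 3 (red) sit below 10% in both or at 100%, except that of Ccnl1 (18.2% and 0%).

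The libraries from the 2 infarcted mice gave similar levels. Over the 95 microexons with an inclusion read in at least 1 library, the median absolute difference was 3.26 percentage points and Pearson's r was 0.970 (Spearman's rho 0.913); this describes 2 libraries over 95 exons that share their library and depth. The largest difference, 37.5 points, was that of the 12-nt exon of Incenp, a subunit of the chromosomal passenger complex of dividing cells, at 77% of 16 reads and 39.5% of 10. Of these 95 microexons, 21 had inclusion reads in 1 library only, with at most 6.18 such reads (the deposited reads are corrected and need not be whole). The intervals of the 2 libraries did not overlap for 3 microexons: the 12-nt exon of Tnnt2, the 15-nt exon of Pdlim5 and the 6-nt exon of Clec16a.

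Besides Incenp, the 7 widest differences belonged to exons with 12 to 34 reads. Kif3a, a kinesin subunit, had its 9-nt exon at 31.0% of 12 reads and 0% of 20. Relb, an NF-kappa-B subunit, had its 9-nt exon at 100% of 17 and 74.8% of 16. In each, the intervals of the 2 libraries overlapped. The 14-nt exon of the cyclin Ccnl1 stood at 18.2% of 34 reads and 0% of 24. The others, Abi1, Nav2, Macf1 and Commd6, are given with their groups below.

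The classes differed in length. Of the 206 microexons, 165 (80.1%) had a length divisible by 3, so that their inclusion keeps the reading frame. All 39 microexons between 10 and 90% were divisible by 3, as were the 9 above 90%. Among the 165, inclusion reads were found for 82 (49.7%), and 55 (33.3%) had a level of 10% or more in both libraries. Among the 41 of other lengths, inclusion reads were found for 13 (31.7%), and 5 (12.2%) had a level of 10% or more in both. All 5 had no skipping read: 11 nt in Col1a2 and in Lmf1, 8 nt in Ablim3 and in Pitpnc1, and 13 nt in F11r. Median summed reads were 74 for the lengths divisible by 3 and 58 for the others.

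By single length, 12 nt (39 microexons), 3 nt (37), 9 nt (35), 15 nt (34) and 6 nt (20) led. An inclusion read was found for 56.4% of the 12-nt, 51.4% of the 9-nt, 48.6% of the 3-nt, 45.0% of the 6-nt and 44.1% of the 15-nt microexons. A level of 10% or more in both libraries was reached by 9 of 37 microexons of 3 nt and 3 of 20 of 6 nt, and by 14 of 35 of 9 nt, 16 of 39 of 12 nt and 13 of 34 of 15 nt. The 3-nt and 6-nt microexons thus had an inclusion read about as often as the longer ones and reached 10% in a smaller share, without a test. Of the 9 microexons of 3 nt, those of Cyth2, Map4k5 and Ddx46 have an uncertain level, for a reason given below. Those of Map4k5 and Ddx46 are also in the 10 to 90% class. The highest mean level among the 3-nt microexons was 98.8%, in Mybpc3. None of the 8 microexons of 5, 7 or 10 nt had an inclusion read.

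**Figure D2:**
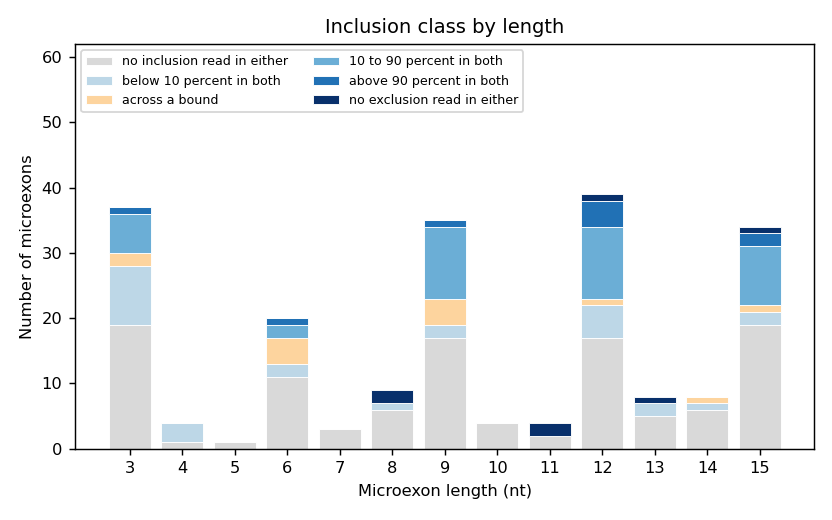
Number of microexons (vertical) at each length in nt (horizontal), stacked by inclusion class in the infarcted libraries. The 5 tall bars are the lengths divisible by 3, and the 10 to 90% class (mid blue) occurs only in those bars.

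Longer exons of the same table were counted with the same read minimum in the same libraries. A length divisible by 3 was found for 68.9% of 270 exons of 16 to 27 nt, 47.3% of 3045 exons of 28 to 60 nt and 41.1% of 26764 exons over 27 nt, against 80.1% of the microexons. Among exons between 10 and 90% in both libraries these shares were 86.2%, 71.8% and 59.9%, against 100% of the 39 microexons. The share with no inclusion read was 53.9% of microexons, 28.1% of exons of 16 to 27 nt and 5.58% of exons over 27 nt. The share with no skipping read ran the other way, at 3.40%, 18.1% and 57.0%. The 19 exons of 15 nt or less outside the microexon class were unlike the microexons in their shares by inclusion, though these rest on few exons. Of them 26.3% (5) had no inclusion read, 15.8% (3) had no skipping read and 31.6% (6) lay between 10 and 90%. Their length was divisible by 3 in 89.5%, and their median summed reads were 37. Median summed reads were 69.0 for microexons and 70.0, 78.0 and 74.0 for the exons of 16 to 27, 28 to 60 and over 27 nt. Exons are not replicates and no test was made. No source used here says how the candidate exons of each length were chosen.

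**Figure D3:**
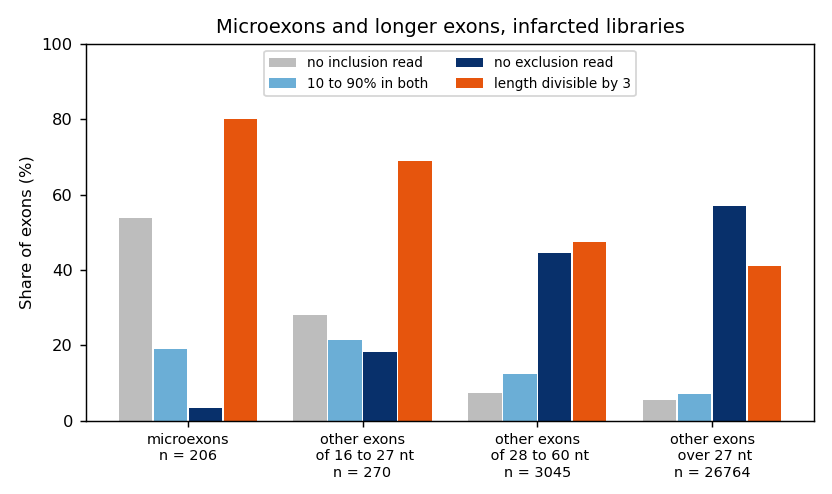
Share of exons (%, vertical) with no inclusion read in either infarcted library, with 10 to 90% inclusion in both, with no skipping read in either, and with a length divisible by 3, for microexons and for longer exons of the same table (exons of 28 to 60 nt are also counted in those over 27 nt). From left to right the grey and orange bars fall and the dark blue bars rise. The 19 exons of 15 nt or less outside the microexon class are not shown.

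The classes also differed in what GENCODE M21 records, which the read minimum did not use. An exon with the same length and both intron lengths was found for 81 of the 206 microexons, 78 of them in coding sequence, 2 in transcripts outside coding sequence and 1 in a transcript marked for nonsense-mediated decay. A match existed for all 7 microexons with no skipping read, for 8 of 9 above 90%, for 25 of 39 (64.1%) between 10 and 90%, and for 23 of 111 (20.7%) without an inclusion read. So 14 microexons between 10 and 90% have no such match, among them the 3-nt exons of Tln1, Dctn2 and Cyth1. For microexons without a match no sequence is printed.

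The genes were sorted by the known role of their protein, a sorting made with the levels known. In genes of the sarcomere and calcium handling, 7 of 11 microexons had a level of 10% or more in both libraries. The count was 3 of 4 in matrix genes, 12 of 30 in genes of actin, adhesion and the membrane skeleton, 8 of 22 in genes of microtubules, motors and cell division, 12 of 41 in genes of membrane traffic and 5 of 17 in signalling genes. It was 4 of 19 in mitochondrial and metabolic genes, 6 of 36 in the remaining genes and 3 of 26, the lowest share, in genes of the nucleus and RNA.

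Tnnt2 encodes cardiac troponin T, which ties the troponin complex to tropomyosin on the thin filament, and it carried 2 measured microexons. The 9-nt exon, printed first above, was included in 81.9% of 15031 reads in replicate 1 and 82.8% of 15284 in replicate 2. Its 12-nt exon stood lower, at 42.4% of 4353 reads (interval 41.0 to 43.9) and 48.0% of 5517 (46.6 to 49.3). The libraries thus agreed within 1 point on the 9-nt exon and differed by 5.51 points, beyond counting error, on the 12-nt exon. Pdlim5, a PDZ and LIM protein of the Z-disc, differed the other way, with its 15-nt exon at 75.03% of 987 reads (72.3 to 77.7) in replicate 1 and 65.5% of 785 (62 to 68.8) in replicate 2. Replicate 2 is the library with the higher atrial markers, and the part of atrial tissue in these differences was not tested.

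Mybpc3, cardiac myosin-binding protein C, had a 3-nt microexon at 99.2% of 2913 reads and 98.5% of 2328. The 15-nt exon of Ryr2, the calcium release channel of the sarcoplasmic reticulum, stood at 98.0% of 42 and 98.4% of 26. Slc8a1, the sodium-calcium exchanger, had no skipping read for its 15-nt exon in 48 and 26 reads, and Ablim3, an actin-binding LIM protein, none for its 8-nt exon in 10 and 28. These exons were thus in nearly every read that measured them. With few reads, the lower bounds of the intervals were 86.8% for Ryr2 and Slc8a1 in replicate 2 and 69.2% for Ablim3 in replicate 1. Casq2 was the opposite case: its annotated 9-nt exon had no inclusion read in 1246 and 1105 reads, which allows a level of up to 0.128%. Tmod3, Pdlim7 and Kcnn2 also had none, with 188 summed reads or fewer each.

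In the matrix genes, both microexons of the laminin chain Lama2 were mostly included, the 12-nt exon at 82.4% and 84.4% and the 6-nt exon at 96.4% and 93.5%. Col1a2, a chain of type I collagen, had no skipping read for its 11-nt exon in 312 and 218 reads. Hspg2, the basement membrane proteoglycan perlecan, had a 9-nt exon at 1.11% of 121 and 0% of 85 reads.

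Genes that link actin to adhesion sites held 3-nt microexons at low to middling levels. Tln1 encodes talin, which couples integrins to actin, and its exon stood at 27.2% of 455 reads and 26.99% of 380. In Vcl, the gene of the actin-binding adhesion protein vinculin, the level was 6.84% of 159 and 7.43% of 117. The 9-nt exon of Ptk2, focal adhesion kinase, was at 14.2% and 14.4%, and the 6-nt exon of Tns1, tensin, at 6.74% and 3.79%. For each of these the libraries differed by 2.95 points or less.

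Cytoskeletal linkers and actin regulators held microexons at levels from 0 to 100%. Spna2 (now Sptan1), non-erythroid alpha spectrin, had its 15-nt exon at 59.8% of 135 reads and 53.9% of 110. The 15-nt exon of the membrane-bending protein Fnbp1 stood at 63.6% and 66.8%. Plec, plectin, had a 15-nt exon at 49.8% and 36.8%, and the receptor phosphatase Ptprm a 12-nt exon at 38.5% and 38.3%. With 14 to 29 reads, the 9-nt exon of Macf1 (60.6% and 42.8%), the 15-nt exon of Abi1 (65.3% and 44.7%) and the 9-nt exon of Mtss1l (48.7% and 63.1%) had wide intervals that overlapped. F11r, a junctional adhesion molecule, had no skipping read for its 13-nt exon, and Ptprs had its 12-nt exon at 100% and 98.4%. At the other end, Macf1's 12-nt exon had no inclusion read in 262 and 183 reads, nor had Dtna's 9-nt exon in 224 and 198 or Myh9's 6-nt exon in 178 and 137. Enah, an actin filament elongator, had its 12-nt exon at 0.73% of 207 and 0% of 204.

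In genes of membrane traffic, 16 of 41 microexons had an inclusion read. Vps29, a retromer subunit, had its 12-nt exon at 11.1% and 11.8%. Psap encodes prosaposin, the precursor of lysosomal saposins, and its 9-nt exon was among the best measured, at 63.7% of 1856 reads and 66.3% of 1551. Sidt2, a lysosomal membrane protein, had a 12-nt exon at 70.3% and 79.8%. Of the AP-1 adaptor subunits, Ap1b1 and Ap1g1 had 9-nt microexons between the bounds, Ap1b1 at 17.3% and 13.8% and Ap1g1 at 28.4% and 33.5%. Ssr1, of the translocon-associated complex, stood at 19.6% and 25.9%, and Erc1 at 26.0% and 10.47% of 16 and 14 reads. Sh3glb2, an endophilin, held 2 microexons, 15 nt at 25.9% and 39.6% and 12 nt at 2.22% and 0%. Pacsin2, which shapes membranes in endocytosis, had no inclusion read for its annotated 6-nt exon in 165 and 165 reads. The 6-nt exon of Clec16a, with intervals that did not overlap, was at 1.10% of 110 reads (0.0230 to 4.96) and 13.1% of 81 (6.98 to 23.0), higher in replicate 2.

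Among microtubule genes, Clip1, which tracks growing plus ends, had its 6-nt exon at 48.3% of 203 reads and 52.7% of 152. Dctn2, the p50 subunit of dynactin, had a 3-nt exon at 47.5% of 308 and 39.0% of 265. It lies beside 3-base site choices that are given below. Fry stood at 10.9% and 13% for its 9-nt exon with 12 and 20 reads. Tacc2, a centrosomal protein, had no inclusion read in 233 and 295 reads.

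In mitochondrial genes the 2 proteins of the MICOS complex, which builds cristae junctions, lay at opposite ends. Immt had its 15-nt exon at 96.2% of 435 reads and 95.3% of 352, and Chchd3 its 15-nt exon at 1.35% of 514 and 0.79% of 439. Idh3g, a subunit of the tricarboxylic acid cycle's isocitrate dehydrogenase, had its 12-nt exon at 96.9% of 320 and 98.3% of 350. Acat1, a thiolase of ketone body metabolism, had no inclusion read for its 9-nt exon in 387 and 301 reads. Gmppa, of nucleotide sugar metabolism, was the member of this group between the bounds, at 58.7% and 54.6%.

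Nuclear genes were mostly at 0. Anp32a and Npm1, both histone chaperones, had no inclusion read for 3-nt microexons in 210 and 252 and in 181 and 177 reads. Ssrp1, a subunit of the histone chaperone FACT, had a 9-nt exon at 11.4% of 138 and 12.2% of 96, and Supt5h, an elongation factor, a 12-nt exon at 100% and 98.7%. Among signalling genes, Gnas, the stimulatory G protein alpha subunit, had a 3-nt exon at 6.36% of 752 and 5.4% of 665. Prune2 had a 9-nt exon at 25.2% and 22.4%. Of the remaining genes, Phtf2 stood at 18.6% and 22.8%, Rundc1 at 31.9% and 15.6%, Commd6 at 60.3% and 78.0%, and C230096C10Rik at 75.2% and 86.3%. The 4-nt exon of Art3 was at 0% of 137 and 0.61% of 254.

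The annotated microexons printed in the second set were chosen because they had no inclusion read. They therefore do not stand for the microexons of genes with neuronal functions as a class. Kdm1a, a histone demethylase, had 44 and 34 reads, which allows a level of up to 3.85%. The endocytic scaffold Itsn1 had 35 and 24 reads (up to 5.08%), the amyloid precursor protein adaptor Apbb1 27 and 31 (up to 5.17%) and the exchange factor Vav2 12 and 13 (up to 12%). Ap1s2, another AP-1 subunit, had no inclusion read for an annotated 9-nt exon in 74 and 45 reads (up to 2.52%). A low level of these exons was thus not detectable at this depth, and a level as high as that of Psap or Clip1 lies above each of these limits.

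**Figure D4:**
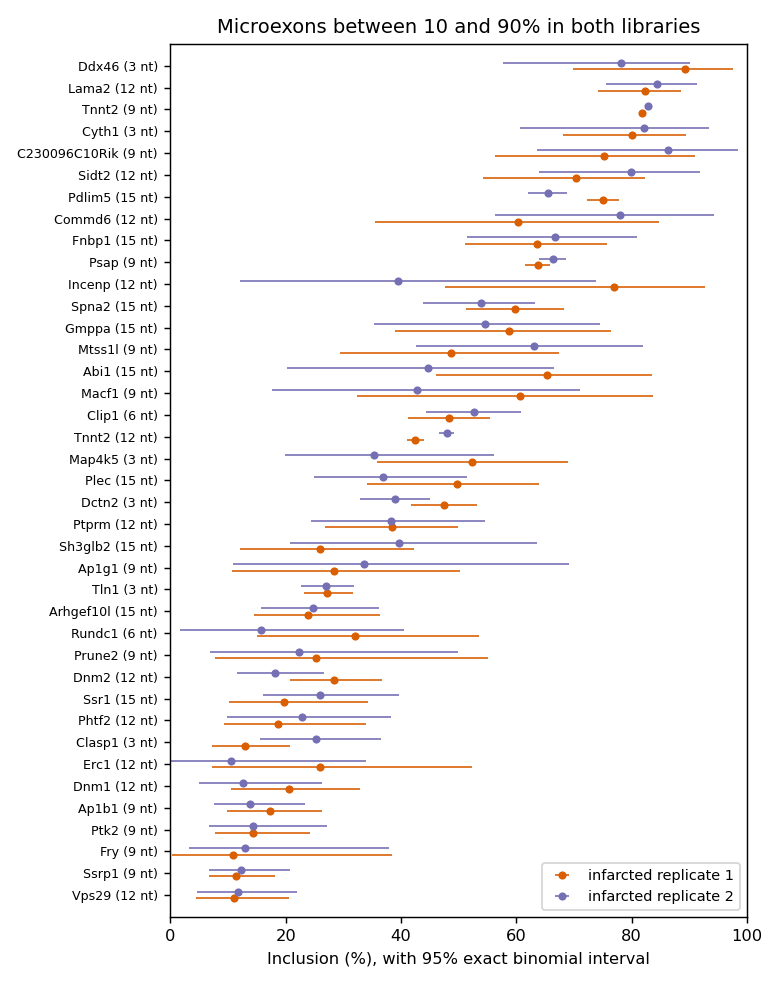
Inclusion (%, horizontal) of the 39 microexons between 10 and 90% in both infarcted libraries, by gene and length, with a point and a 95% exact binomial interval for each library. The 2 intervals of a microexon overlap except for the 15-nt exon of Pdlim5 and the 12-nt exon of Tnnt2, which have the most reads beside Psap and the 9-nt exon of Tnnt2.

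Some related genes with a microexon of the same length differed widely in its level, and others lay close. Clasp1 and Clasp2, which stabilise microtubule plus ends, have the same 3 letters as microexon, and 29 of the 36 flanking bases printed above are the same. The level was 13.02% of 108 reads (7.27 to 20.8) and 25.3% of 72 (15.5 to 36.6) in Clasp1, against 92.3% of 12 (61.5 to 99.8) and 83.1% of 11 (48.2 to 97.7) in Clasp2. The intervals of the 2 genes did not overlap in either library. In the microtubule-binding proteins Nav1 and Nav2, 7 of 9 microexon letters and 26 of 36 flanking bases match. Nav1 stood at 0% of 16 reads (up to 20.6) and 10.1% of 13 (0.195 to 36.0), and Nav2 at 76.4% of 17 (50.1 to 93.2) and 94.96% of 30 (77.9 to 99.2), again without overlap.

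Mapk8ip3 and Spag9 encode scaffolds that link kinase signalling to motor transport. Of their letters 9 of 12 match in the microexon but only 19 of 36 in the flanking bases. Mapk8ip3 stood at 100% of 36 reads and 95.9% of 33, and the 12-nt exon of Spag9 printed above at 0% of 59 and of 73. A 15-nt exon of Spag9 shares that skipping junction and was also at 0%, and another 12-nt exon of the gene was at 17.9% and 4.16%. The dynamins Dnm1 and Dnm2, which cut vesicles from membranes, match at 8 of 12 microexon letters and 22 of 36 flanking bases. They lay near each other, with intervals that overlap. Dnm1 was at 20.6% of 55 and 12.7% of 46 and Dnm2 at 28.3% of 131 and 18.2% of 110. The cytohesins, exchange factors for ARF GTPases, split: 3-nt microexons of Cyth1 (80.2% of 61 reads and 82.1% of 26) and Cyth2 (84.8% of 67 and 91.0% of 51) were mostly included and that of Cyth3 had no inclusion read in 47 and 60. The level of the Cyth2 microexon is uncertain, for a reason given below. These pairs were picked with the levels known, and no test was made.

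Some 3-nt microexons sit beside a splice-site choice that changes the mRNA by the same 3 bases, and those site choices were measured in all 4 libraries. Such a choice of equal size was listed at a flank of 14 of the 206 microexons. For Cyth2, GENCODE holds both forms, which differ at 1 letter in the 39 bases shown.
Cyth2 with the microexon, chr7:53064100-53064102, minus strand: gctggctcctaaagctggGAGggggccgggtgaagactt
Cyth2 with the longer downstream exon: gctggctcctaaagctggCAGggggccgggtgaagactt

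The longer Cyth2 exon was used in 83.9% and 88.6% of reads in the infarcted and 83.6% and 89.9% in the uninjured libraries. Its microexon was listed at 84.8% and 91.0%, so both readings gave nearly the same number. In Map4k5, a kinase of stress signalling, the longer exon was at 51.4% and 44.4% in the infarcted and 22.6% and 40.7% in the uninjured libraries, with 27 to 37 reads each, and the microexon at 52.2% and 35.4%. Ddx46, an RNA helicase of the spliceosome, showed the same likeness, with a 3-base longer upstream exon at 90% and 80% in the infarcted and 80.6% and 89.7% in the uninjured libraries, and a 3-nt microexon at 89.4% and 78.2%. Reads were 50 bases long, and whether reads of one form were counted for the other was not tested. For these 3 genes the level of the microexon itself is therefore uncertain.

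Gnas was different. The downstream site that adds 3 bases was used in 30.7% and 29.5% of reads in the infarcted and 43.2% and 38.5% in the uninjured libraries, with 723 to 1497 reads each, while the 3-nt microexon was listed at 6.36% and 5.4%. In Apbb1, whose 6-nt microexon differs from the longer form at 3 letters, both the microexon and the site were at 0% in every library that measured them. No test of these site choices between the groups was made.

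**Figure D5:**
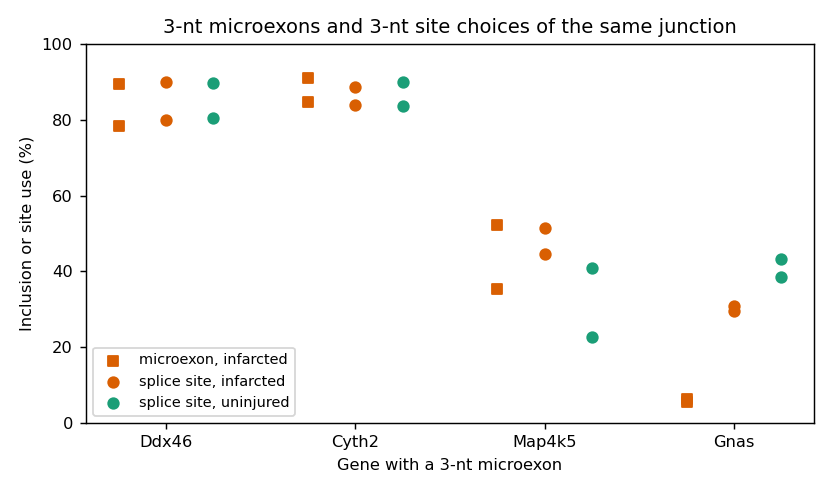
Inclusion of a 3-nt microexon in the infarcted libraries (squares) and use of a splice site that adds 3 bases at the same junction in the infarcted (orange circles) and uninjured libraries (green circles), in percent (vertical), for 4 genes (horizontal), 1 symbol per library. Squares and orange circles lie at similar heights for Ddx46, Cyth2 and Map4k5, and apart for Gnas.

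Other exons of 15 nt or less, outside the table's microexon class, have inclusion values in the uninjured libraries too. With at least 10 reads in all 4 libraries, 15 were measured, and in 5 of them the infarcted and uninjured values did not overlap. This held for 12.1% of the 23505 exons of any length outside the microexon class with such reads. Among exons with unequal values in the 4 libraries it held for 5 of 10 short ones, against 25.4% of 11236 of any length, and no test was made.

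The read minimum itself had neighbours on both sides. At exactly 10 reads in the shallower library, the microexons of Pes1, Pld2, Cdk13, Zcchc6, Arl6, Rprd1b, Ptprf, Hsd3b7 and Cask were at 0% in both libraries, Ablim3 at 100% in both, and Incenp at the values given above. Just outside, at 9 reads, Abca2 was at 17.0% and 35.3%, Gdpd5 at 12.7% and 33.3%, Rabepk at 14.0% and 0%, and Paxip1 at 13.5% and 13.5%. Mcm3ap, St5, Gmps, Scyl2 and Cyp20a1 were at 0%.

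The genes that carry the microexons could be compared between infarcted and uninjured hearts. Of the 191 host genes tested, 42 (22.0%) were higher and 24 (12.6%) lower in the infarcted libraries at an adjusted p below 0.05 (edgeR's quasi-likelihood test, Benjamini-Hochberg over all 13905 genes tested). Among all genes tested 18.3% were higher and 14.6% lower, so the shares are near the background. The median log2 fold change was 0.09 for host genes and 0.02 for all genes. Since a gene needs reads in the infarcted libraries to be among the hosts, the rule itself leans towards genes that are higher there.

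Col1a2 stood at 1441 and 966 CPM in the infarcted and 83.6 and 82.5 CPM in the uninjured libraries, a log2 fold change of 3.86 ± 0.27 (SE, adjusted p 1.90e-06). Ptprf, a receptor phosphatase of cell adhesion, stood at 17.36 and 28.04 against 3.17 and 2.91 CPM (log2 fold change 2.90). Both are far apart between the groups, and Col1a2's microexon was never skipped while that of Ptprf had no inclusion read. Fcgr1, a macrophage Fc receptor, rose by 2.00 on the log2 scale and Incenp by 1.92. The microexons of Ptprf and Incenp had exactly 10 reads in the shallower infarcted library. The read minimum thus favours listing such genes when they are higher there. The actin-binding genes Flna, Enah and Myh9 rose by 1.73, 1.71 and 1.68. Hspg2 and Dnm1 both rose by 1.5, and Atp8b2, a phospholipid flippase subunit, by 1.29. Summed fibroblast markers, given above, were higher in the same libraries. Of these markers edgeR called Col1a1 higher (adjusted p 1.31e-06), and not Pdgfra (adjusted p 0.059), Dcn (0.053) or Tcf21 (0.35). Summed macrophage markers (Cd68, Adgre1, Csf1r) were also higher, at 140.3 and 132.8 CPM against 57.1 and 42.6, and edgeR called all 3 of them higher. The part of these cells in the changes was not tested.

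The lower host genes included several of metabolism. Apbb1, an adaptor of the amyloid precursor protein, stood at 34.8 and 39.5 CPM in the infarcted and 69.0 and 111 CPM in the uninjured libraries (log2 fold change -1.28 ± 0.23, SE, adjusted p 0.00147). Kcnn2, a calcium-activated potassium channel, and Rit1, a small GTPase, each had a log2 fold change of -1.09, and the histone variant H2afv -0.98. Ogdhl, Acat1, Pcca and Idh3g, all mitochondrial enzymes, had -0.94, -0.90, -0.86 and -0.85. Tbc1d4, which controls glucose transporter traffic, had -0.94 and the lipid transfer protein Pitpnc1 -0.89. For all these genes the 2 groups did not overlap, which adds little, as they were picked by call and fold change. Tnnt2 stood at 4438 and 5240 CPM in the infarcted and 7152 and 9675 CPM in the uninjured libraries (log2 fold change -0.80 ± 0.28, adjusted p 0.0428).

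Of 38 listed splicing regulators, 28 had enough counts for the edgeR test, and 4 (14.3%) were higher and 4 (14.3%) lower in the infarcted libraries, against 18.3% and 14.6% of all genes tested. Srrm4, the activator of neural microexons, was measurable in heart and stood at 12.3 and 9.39 CPM in the infarcted and 23.7 and 19.9 CPM in the uninjured libraries, a log2 fold change of -1.0 ± 0.21 (adjusted p 0.00346). Ptbp1, which represses many neural exons, moved the other way, from 36.9 and 33.3 CPM in the uninjured to 89.2 and 71.3 CPM in the infarcted libraries (1.19 ± 0.19, adjusted p 0.000642). Rbfox1, a splicing factor of muscle and neurons, fell by 1.52 on the log2 scale, from 47.5 and 34.1 to 16.6 and 11.8 CPM. Its paralog Rbfox2 stood at 92.3 and 102.7 CPM in the infarcted and 84.2 and 79.1 CPM in the uninjured libraries (0.26, adjusted p 0.32). Ptbp3 (0.93) and the spliceosome scaffold Srrm2 (0.65) were also higher, as was Celf4 (1.61), which stood under 2 CPM in every library. Rbm38 and Khdrbs3 fell by 1.03 and 0.79. Srrm3, the paralog of Srrm4, was under 0.1 CPM in every library and was not tested. As no uninjured inclusion level exists in these data, these changes cannot be set beside a change of any microexon.

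Single libraries decided some of these calls. The call of Celf4 was lost without infarcted replicate 2, the library with atrial markers (log2 fold change 0.83, adjusted p 0.32), and without uninjured replicate 1 (1.84, adjusted p 0.15). With DESeq2 on all 4 libraries Celf4 also missed the threshold (1.58, adjusted p 0.055), and no other named gene did. Without infarcted replicate 2, those of Srrm2 (0.57, adjusted p 0.20), Khdrbs3 (-0.65, adjusted p 0.11) and Idh3g (-0.88, adjusted p 0.052) were also lost, and Srrm2 was lost without infarcted replicate 1 (0.63, adjusted p 0.13). Without uninjured replicate 1 the adjusted p was 0.055 for Srrm4 (-0.88) and 0.058 for Incenp (1.79). Host genes called fell to 21 higher without infarcted replicate 1, and to 27 higher and 11 lower without infarcted replicate 2. Without uninjured replicate 2, edgeR called 1 host gene higher and 0 lower and 0 regulators in either direction, with 74 host genes and 8 regulators at an unadjusted p below 0.05. DESeq2 on the same 3 libraries called 19 host genes higher and 8 lower. All these values come from edgeR's quasi-likelihood test unless DESeq2 is named.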

How the data were processed

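Hearts of 2 infarcted and 2 uninjured mice were sequenced as single-end reads of 50 bases, per the labels' protocols, and samples were grouped by their labels. The authors deposited raw counts per gene and a table of splicing events with percent inclusion and, as other values, the corrected inclusion and exclusion reads, on mm9 per the submitters' processing notes. No source used here names the aligner, the counter or the event caller. Each deposited percent equalled 100 times inclusion over all reads within 0.0331 points for every microexon measured.

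Intervals were computed with scipy 1.17.1 on reads rounded to whole numbers. Gene counts were tested in edgeR 4.0.16 (TMM, filterByExpr, robust quasi-likelihood fit, R 4.3.3) over all 4 libraries, with adjusted p below 0.05 as the threshold and 2 residual degrees of freedom. The common biological coefficient of variation was 19.3%. Standard errors came from the F statistic. The script was tested on simulated data. DESeq2 1.42.0, other scaling, no filter, a replicate block, leaving out each library, and other read minimums were tried. The series' design counts 2 mice in each group, and p-values measure the spread between their libraries.

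Microexons named were the 25 with the highest smaller read total, all between 10 and 90%, the 8 with the largest difference between libraries, those nearest the read minimum, and host genes and regulators called, up to 10 in each direction. Others named in the text, the role groups and the gene pairs were chosen after their values were seen. The microexons and the lists were chosen with earlier results of these data known. Some microexons that these rules name are not reported here.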

Additional observations from a re-analysis of the deposited data

How the results depend on the processing

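A read minimum of 5 gave 271 microexons and one of 20 gave 142, of which 79.7% and 81.0% had a length divisible by 3. The median inclusion was 0% except at a minimum of 20 reads, where it was 0.335%. Between 10 and 90% lay 47 microexons at 5 reads, 46 of them divisible by 3, and 29 at 20 reads, all 29 divisible by 3. Called host genes ranged from 1 to 38 higher and 0 to 28 lower when each library was left out in turn, and regulators from 0 to 6 higher and 0 to 4 lower. Leaving out infarcted replicate 1 gave 21 host genes higher, and leaving out infarcted replicate 2 gave 27 higher and 11 lower. The lowest counts came without uninjured replicate 2 (74 host genes and 8 regulators had an unadjusted p below 0.05). With DESeq2 and without that library, an alternative chosen after seeing the data, 19 host genes were higher and 8 lower, and 1 regulator was higher and 3 lower. The cause was not tested. DESeq2 on all libraries called 41 host genes higher and 29 lower. The labels number the samples of each group, and a fit with the replicate block called 47 host genes higher and 27 lower, and 6 regulators higher and 4 lower. With 2 pairs, whose deviations correlated at 0.108, the numbers were not taken to pair the mice. For the 28 named genes, 207 of 252 values under alternatives kept direction and call, 45 kept the direction and lost the call, and 0 reversed. Depth limits the microexon levels, since 55 had fewer than 20 reads in replicate 2.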

Other observations

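The values of the 15 exons of 15 nt or less outside the microexon class follow, with no test made on them. The 15-nt exon of Ldb3, a Z-disc protein, was at 3.36% and 5.23% in the infarcted and 3.75% and 4.68% in the uninjured libraries, with 609 to 1322 reads each. Its level overlapped between the groups. The 15-nt exon of Fuca1, a lysosomal fucosidase, was at 93.7% and 95.3% against 88.8% and 96.4%, and the 9-nt exon of Josd2, a deubiquitinase, at 66.4% and 73.3% against 69.7% and 78.5%. The exons of Ubp1 and Rps12 were at 100% in every library and those of Atl2, Tpd52l1 and Camta1 at 0%. Those of Tle2 (75% and 69.2% against 48.1% and 77.8%) and Add3 (0% and 6.44% against 7.79% and 2.54%) overlapped between the groups.

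The groups did not overlap for 5 exons, named with their values known. The 12-nt exon of Atp2c1, the Golgi calcium pump, was at 11.1% of 23 reads and 43.0% of 14 in the infarcted libraries and at 0% of 16 and of 17 in the uninjured. The 9-nt exon of Arhgef1 was at 8.12% of 23 and 13.9% of 13 against 0% of 15 and of 18. In both genes the highest value came from infarcted replicate 2, the library with the higher atrial markers, whose part was not tested. The 15-nt exon of 1110007C09Rik was lower in the infarcted libraries, at 23.4% of 124 reads and 22.6% of 114 against 28.2% of 116 and 28.4% of 242. The 12-nt exon of Phactr2 was at 89.4% and 79.5% against 75.4% and 77.8%, with 15 to 20 reads each. That of Map4k4, of 9 nt, was at 0.52% and 0.72% against 1.01% and 2.04%, with 49 to 95 reads each. At this depth the Map4k4 levels rest on very few inclusion reads and lie near the floor.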
